A study of Mus musculus with 6 samples.

Results

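The Nr4a family comprises the orphan nuclear receptors Nr4a1 (Nur77), Nr4a2 (Nurr1) and Nr4a3 (Nor-1). All 3 genes were found by symbol in the deposited RPKM table, 1 entry each among 13724 gene entries, and all 3 passed the filter on low values. Material came from wild type C57Bl6/J mice that had been kept at warm temperature in 3 numbered warm challenges. From brain slices of 0.5 mm the anterior hypothalamus was taken, and the labels call the tissue preoptic neurons. Each warm challenge gave 1 immunoprecipitate (IP), which is RNA bound to ribosomes whose protein S6 carries phosphate at sites 244 and 247, and 1 input, which is the total RNA. S6 is phosphorylated in active neurons, and the method is called PhosphoTRAP. There were thus 3 IP libraries and 3 inputs, numbered by warm challenge, all from mice of the same genotype and the same condition. No group at another temperature was analysed, so a difference between IP and input is not tied to warmth. The temperature, the duration, the age and sex of the mice and the number of mice per challenge are not given in the labels. Nothing states that the 3 challenges used separate animals, so p-values measure the spread between these libraries, which may be technical.

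Nr4a receptors are immediate early genes: firing, calcium entry and cAMP switch on their transcription within minutes and without new protein synthesis. Calcium and cAMP act on them largely through CREB, a factor that binds the cAMP response element (CRE) and its half-site, and through MEF2 factors. The proteins need no known hormone, and their activity follows from how much protein is made. They bind the NBRE sequence as monomers, and Nr4a1 and Nr4a2 can also pair with retinoid X receptors (RXR). In the hypothalamus and pituitary, Nr4a factors are known for acting on the Crh and Pomc genes of the stress axis, and Nr4a2 is known for specifying midbrain dopamine neurons.

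The promoters are shown because CREB is known to act on these genes and its half-site can be searched for as a short word. They are the RefSeq promoters of build GRCm38.p6, 250 bases before to 50 after the start site, written 5′ to 3′ on the strand of the gene. Capitals mark the half-site TGACG, or CGTCA where it lies on the other strand. The mouse windows are chr15:101266596-101266895 on the plus strand for Nr4a1, chr2:57123954-57124253 on the minus strand for Nr4a2 and chr4:48045055-48045354 on the plus strand for Nr4a3.
Nr4a1: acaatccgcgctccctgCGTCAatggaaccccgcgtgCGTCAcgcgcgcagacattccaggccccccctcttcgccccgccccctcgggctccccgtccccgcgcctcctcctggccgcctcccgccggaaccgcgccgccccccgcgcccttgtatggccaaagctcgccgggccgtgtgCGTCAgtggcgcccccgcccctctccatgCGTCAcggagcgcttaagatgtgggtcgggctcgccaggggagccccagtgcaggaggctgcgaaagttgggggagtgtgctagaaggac
Nr4a2: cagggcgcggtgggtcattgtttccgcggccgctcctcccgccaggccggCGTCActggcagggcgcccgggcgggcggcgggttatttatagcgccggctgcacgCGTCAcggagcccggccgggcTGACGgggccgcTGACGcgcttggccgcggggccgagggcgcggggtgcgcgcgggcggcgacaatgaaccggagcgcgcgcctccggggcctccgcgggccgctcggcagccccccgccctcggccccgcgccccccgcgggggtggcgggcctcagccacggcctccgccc
Nr4a3: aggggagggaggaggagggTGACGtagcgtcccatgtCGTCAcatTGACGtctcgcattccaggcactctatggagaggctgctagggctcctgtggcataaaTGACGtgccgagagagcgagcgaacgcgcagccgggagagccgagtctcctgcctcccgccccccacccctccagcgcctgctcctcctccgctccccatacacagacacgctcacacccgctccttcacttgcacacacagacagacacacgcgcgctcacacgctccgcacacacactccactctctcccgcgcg

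Each of the 3 promoters held 4 half-sites on either strand. Of 32851 promoters of the same length in the table, 20.8% held at least 1 half-site, and 76, or 0.231%, held 4 or more. The Nr4a promoters are rich in G and C, with 72.3% for Nr4a1, 81.7% for Nr4a2 and 64.7% for Nr4a3, and among the 9690 promoters with 60% or more, 0.557% held 4 or more half-sites. In Nr4a1 all 4 half-sites lay on the other strand, with first bases at -233, -213, -69 and -40 from the start site. Nr4a2 held 2 on each strand, between -200 and -111, and Nr4a3 held 3 on the gene strand and 1 on the other, between -231 and -147. All 4 in Nr4a1 were part of the longer CRE-like word TGCGTCA, searched on both strands after the sequences had been seen. It occurred at least once in 2.12% of promoters, and the Nr4a1 promoter was the 1 of 32851 with 4. The full palindrome TGACGTCA, found in 1.79% of promoters, and the NBRE word AAAGGTCA, found in 1.51%, did not occur in these 3 windows. A MEF2 site occurred in Nr4a2 alone among the 3 (first base at -167) and in 3.19% of all promoters. Of 46 other nuclear receptor genes, 40 had a promoter in the table, and each gene was counted by its promoter with the most half-sites. Among these 40, 12 held a half-site and 1, Nr2e1, held 3 or more, while none held 4. Counted by gene in the same way, 23.0% of 27025 genes held at least 1 half-site and 1.17% held 3 or more. These matches describe letters in the windows and are no evidence of binding.

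**Figure D1:**
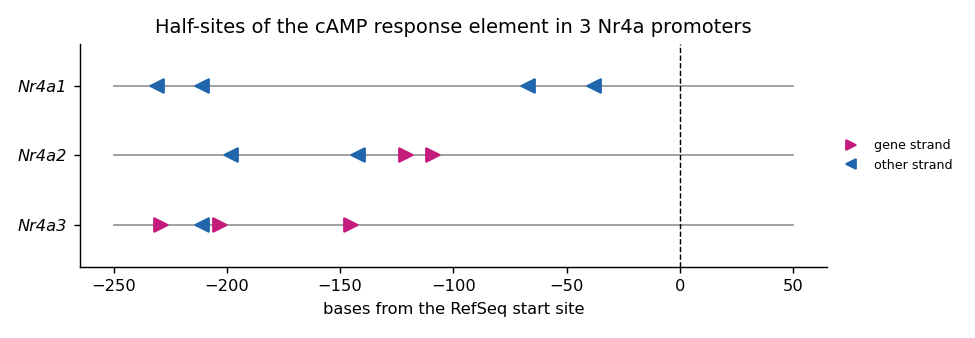
Half-sites of the cAMP response element in the promoters of Nr4a1, Nr4a2 and Nr4a3, by distance in bases from the RefSeq start site (dashed line). Triangles mark the 4 half-sites per gene, pointing right on the gene strand and left on the other strand, and all lie upstream of the start site.

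All 3 receptor mRNAs were higher in IP than in input, in each warm challenge and without overlap between the groups. Nr4a3 and Nr4a1 rose by a log2 fold near 2 and Nr4a2 by about 1, on the scale of log2(RPKM + 1). RPKM, reads per gene length and library size, is a level per length, so that levels of different genes can be set beside each other. The test was limma's moderated linear model over the 12328 genes that reached 1 RPKM in no fewer than 3 libraries, two-sided, with Benjamini-Hochberg adjustment over all of them. In tissue pieces such as these, fewer cells of a type and less RNA per cell cannot be told apart.

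Nr4a1 encodes the receptor first described as a gene induced by nerve growth factor. It stood at 20.2, 16.5 and 43.4 RPKM in IP 1, 2 and 3, against 5.41, 4.56 and 6.58 RPKM in input 1, 2 and 3. The lowest IP library lay 2.50-fold above the highest input, and IP 3 stood well above the other two IP libraries. Within the warm challenges the ratio of IP to input was 3.73, 3.61 and 6.60. The means were 26.7 ± 14.6 RPKM in IP and 5.52 ± 1.01 RPKM in input (SD, n = 3 each). The log2 fold was 1.97 (SE 0.34, 95% interval 1.21 to 2.74), with a limma adjusted p = 0.0237.

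Nr4a2, the receptor of dopamine neuron development, showed the smallest change of the 3. Its level was 12.2, 11.1 and 13.0 RPKM in IP 1, 2 and 3, against 5.31, 5.36 and 4.01 RPKM in the inputs of the same challenges. The IP libraries lay close together, the highest being 1.17-fold above the lowest, and all were at least 2.08-fold above every input. IP over input was 2.29, 2.08 and 3.25 within the challenges. Its mean was 12.1 ± 0.950 RPKM in IP and 4.89 ± 0.767 RPKM in input (SD, n = 3 each), with a log2 fold of 1.16 (SE 0.21, 95% interval 0.68 to 1.64, limma adjusted p = 0.0279).

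Nr4a3, the third member and also an early response gene, was the scarcest of the family in every input. It measured 8.21, 5.27 and 15.8 RPKM in IP 1, 2 and 3, against 1.25, 1.22 and 1.52 RPKM in input 1, 2 and 3. The inputs were nearly level, whereas the IP libraries spread 3.01-fold, with IP 3 highest and IP 2 lowest as for Nr4a1. Ratios of IP to input were 6.58, 4.33 and 10.4, the highest of the family in each challenge. The mean was 9.77 ± 5.45 RPKM in IP and 1.33 ± 0.166 RPKM in input (SD, n = 3 each). On the log2(RPKM + 1) scale the fold was 2.09 (SE 0.34, 95% interval 1.34 to 2.85, limma adjusted p = 0.0188). With 0.1 or 5 added in place of 1 it was 2.65 or 1.16. Its size thus depends on the scale for a gene so near 1 RPKM in input.

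**Figure D2:**
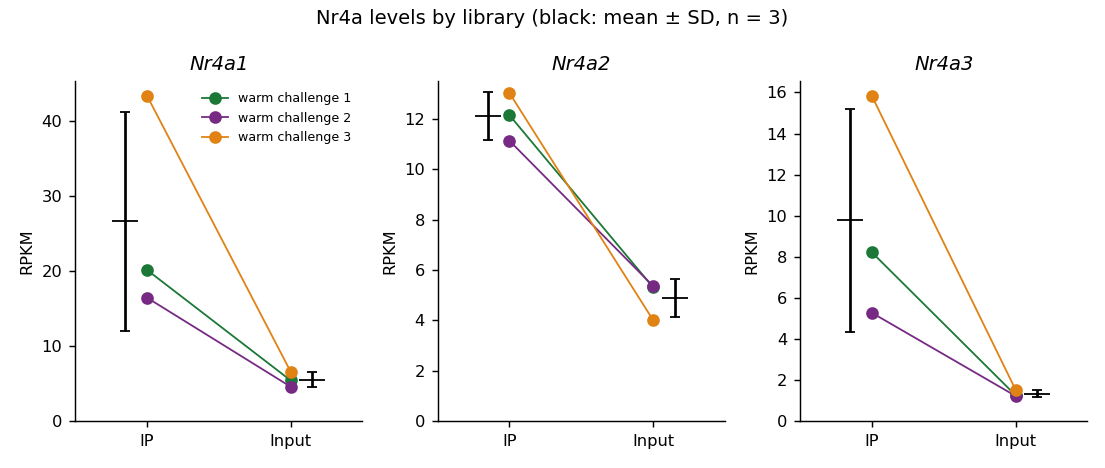
RPKM of each Nr4a gene in the IP (left) and input (right) library of each warm challenge, with lines joining the libraries of 1 challenge and black bars for the mean ± SD of 3 libraries. All IP points lie above all input points, and warm challenge 3 has the highest IP value for each gene.

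Against all genes the 3 members stood near the upper end. At an adjusted p under 0.05, 110 of 12328 genes, or 0.892%, were higher in IP and 406, or 3.29%, were lower, which makes 4.19% in either direction. All 3 members were among the higher ones. At an unadjusted p under 0.05, 3005 genes, or 24.4%, passed, of which 621 (5.04%) were higher in IP and 2384 (19.3%) lower. All 3 IP libraries lay above all 3 inputs for 6.85% of genes tested. By size of the log2 fold Nr4a3 ranked 23, Nr4a1 ranked 31 and Nr4a2 ranked 139 among genes tested. Within warm challenges 1, 2 and 3, Nr4a3 ranked 44, 103 and 22, Nr4a1 ranked 75, 76 and 29, and Nr4a2 ranked 294, 435 and 235. Over all genes tested the median lay at -0.18 on the log2 scale, and relative to it the folds were 2.15 for Nr4a1, 1.34 for Nr4a2 and 2.27 for Nr4a3. After scaling each library to a common median, 126 genes were higher and 125 lower, and the lower ones made up 49.8% of calls, against 78.7% without scaling.

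**Figure D3:**
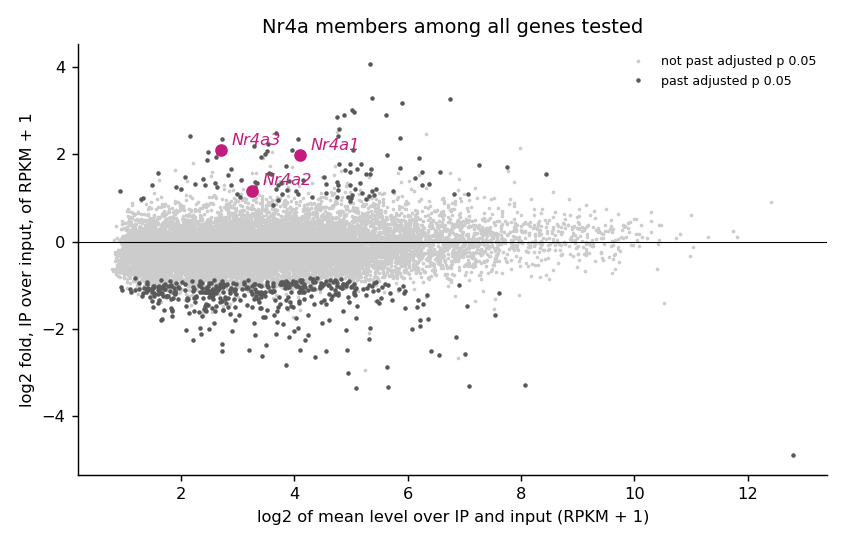
Log2 fold of IP over input against the mean level of IP and input for 12328 genes, both from RPKM + 1, with genes past an adjusted p of 0.05 in dark grey. The Nr4a genes (pink) lie in the upper part, Nr4a3 at 2.09, Nr4a1 at 1.97 and Nr4a2 at 1.16.

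The calls of the 3 genes held with every pseudocount, filter, scaling and variance setting tried, also in a blocked fit by challenge, but not when libraries were left out. Leaving out any 1 input ended the calls of all 3 genes (adjusted p = 0.0573 to 0.121), and Nr4a2 also lost its call without IP 2 (adjusted p = 0.0705) or IP 3 (adjusted p = 0.0778). In these omissions 4 to 31 genes of the whole table were higher in IP, against 110 with all libraries. The log2 folds stayed positive but moved with the library left out. Without IP 3 they were 1.57 for Nr4a1, 1.11 for Nr4a2 and 1.71 for Nr4a3, and without IP 2 they were 2.25, 1.21 and 2.42. Without warm challenge 3 they were 1.69 for Nr4a1, 1.00 for Nr4a2 and 1.77 for Nr4a3.

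The level of the family as a whole and the share of each member were also compared. Summed over the 3 genes, IP 1, 2 and 3 held 40.5, 32.9 and 72.3 RPKM, against 11.96, 11.14 and 12.10 RPKM in the inputs of challenges 1, 2 and 3. The inputs were nearly equal to each other, and the lowest IP library was still far above them. This is 48.6 ± 20.9 RPKM in IP and 11.7 ± 0.520 RPKM in input (SD, n = 3 each), with an exact two-sided permutation p = 0.1, the smallest that 3 against 3 libraries allow. Within challenges the summed level in IP was 3.39, 2.95 and 5.97 times that in input.

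Nr4a1 ranked first in all 3 IP libraries and made up 53.3 ± 5.87% of the summed level in IP and 46.8 ± 6.84% in input (SD, n = 3 each). Its share overlapped between the groups but was higher in IP in each challenge, at 49.7% against 45.2%, 50.1% against 41.0% and 60.1% against 54.3%. Nr4a2 made up 27.3 ± 8.27% of the sum in IP and 41.9 ± 7.81% in input. Its share was lower in IP than in input in each challenge, at 30.0% against 44.4%, 33.9% against 48.1% and 18.0% against 33.1%. Nr4a3 held 19.4 ± 3.03% of the sum in IP and 11.3 ± 1.11% in input, and its share in every IP library exceeded that in every input. The order of levels in input was Nr4a1 and Nr4a2 together, which did not differ beyond their spread (input 2 had Nr4a2 higher), then Nr4a3 below both. In IP, Nr4a1 stood first, above Nr4a2 in 3 of 3 libraries, while Nr4a2 and Nr4a3 exchanged places in IP 3 and did not differ beyond their spread.

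Whether the members differed in their enrichment was tested for 3 pairs on log2 ratios of RPKM + 1, with an exact two-sided permutation over the 6 libraries. The ratio of Nr4a3 to Nr4a2 was higher in IP than in input by 0.93 (exact permutation p = 0.1), positive in each challenge at 0.97, 0.57 and 1.25. The ratio of Nr4a1 to Nr4a2 was higher in IP by 0.81 (exact permutation p = 0.2), also positive in each challenge. Between Nr4a3 and Nr4a1 the difference was 0.12 (exact permutation p = 0.4), negative in challenge 2, and its sign turned to -0.34 with a pseudocount of 5. None of these can pass 0.05 at this number of libraries, with or without adjustment over the 3 pairs, since 0.1 is the smallest p allowed. When signs were exchanged within challenges instead, the exact permutation p was 0.25 for the ratios to Nr4a2 and for the summed level, the smallest that 3 pairs allow.

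Over the 6 libraries, Nr4a1 and Nr4a3 were the nearest genes to each other, and Nr4a2 lay farther from both. Likeness was measured as the Euclidean distance between log2(RPKM + 1) values after removal of each gene's mean, over 6 libraries of 2 fractions, so the size of the difference between IP and input enters every value. Among all genes tested, the gene nearest to Nr4a1 was Nr4a3, at a distance of 0.312, and the gene nearest to Nr4a3 was Nr4a1 (Pearson r = 0.99, as a description over 6 libraries). Next to Nr4a1 came Zdhhc14, a palmitoyltransferase gene, then Egr4 and Npas4, which encode activity-induced transcription factors, and Dusp14, a phosphatase gene. Nr4a3 had Zdhhc14, Npas4, Egr1 and Egr4 next to it. Zdhhc14 measured 14.9, 16.9 and 33.2 RPKM in IP 1, 2 and 3, against 6.02, 4.53 and 5.77 RPKM in the inputs, with IP 3 standing out as for Nr4a1.

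Nr4a2 came at place 75 among all genes in order of distance from Nr4a1 (Pearson r = 0.91) and at place 54 from Nr4a3 (Pearson r = 0.93), again as a description over 6 libraries. Counted from Nr4a2, which has the smaller fold, Nr4a1 came at place 2503 and Nr4a3 at place 2902. Its own nearest genes were Whrn, which encodes a scaffold protein, at a distance of 0.233, Armcx2, the potassium channel subunit gene Kcng4, Rcc2 and Dbc1. These had log2 folds between 1.02 and 1.30. Whrn measured 16.5, 16.6 and 19.8 RPKM in IP 1, 2 and 3, against 6.62, 7.53 and 5.71 RPKM in the inputs, a flat IP profile like that of Nr4a2.

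Other nuclear receptors had a share of calls near that of all genes. Of 46 such genes 34 were listed and 27 tested, of which 1 was higher in IP, 0 were lower and 26 did not pass, against 0.892% higher and 3.29% lower among all genes. At an unadjusted limma p under 0.05, 2 were higher and 4 lower, and 24.4% of all genes passed at that level. Their median log2 fold was 0.00, against -0.18 for all genes tested, and among them 0 had a larger fold than Nr4a3 or Nr4a1 and 1 had a larger fold than Nr4a2. The 1 called was Rorb, an orphan receptor gene expressed in subsets of neurons. Rorb stood at 45.1, 28.2 and 26.1 RPKM in IP 1, 2 and 3, against 12.1, 9.94 and 11.0 RPKM in the inputs. IP 1 was its highest library, unlike the Nr4a genes. Its log2 fold was 1.47 (SE 0.25, limma adjusted p = 0.0236), a call that ended without any 1 input and without IP 2 in turn.

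Among listed receptors the Nr4a genes ranked low in input and higher in IP by level per length. Of the 30 receptor genes tested, members included, Nr4a1 was number 4 by mean RPKM in IP and number 20 in input, Nr4a2 number 10 and 22, and Nr4a3 number 12 and 30. Thra, the thyroid hormone receptor alpha gene, was first in both fractions at 81.9 RPKM in IP and 60.5 RPKM in input.

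The 3 RXR genes, which are counted in that list and whose products pair with Nr4a1 and Nr4a2, did not pass in either direction by limma, and 0 had an unadjusted p under 0.05, against 24.4% of all genes. Their folds lay between -0.39 and -0.31, below the median of all genes. Rxra measured 8.81, 6.57 and 5.89 RPKM in IP 1, 2 and 3, against 11.3, 9.24 and 8.09 RPKM in the inputs, with overlapping groups (limma adjusted p = 0.341). For Rxrb the adjusted p was 0.390 at a log2 fold of -0.35.

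**Figure D4:**
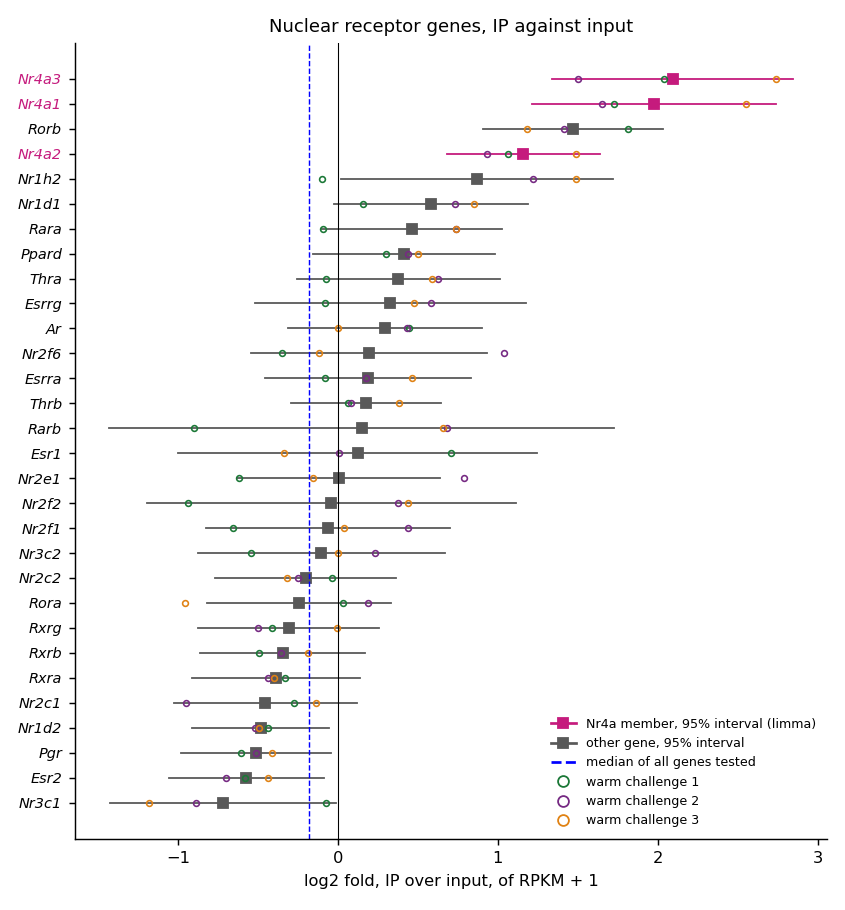
Log2 fold of IP over input (squares, with limma's 95% interval) and the fold within each warm challenge (open circles) for 30 nuclear receptor genes, from RPKM + 1. Nr4a3, Nr4a1, Rorb and Nr4a2 head the order, and the 3 RXR genes lie below the median of all genes (dashed line, -0.18).

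Other inducible transcription factors were higher in IP in larger number than any other list here. Of 28 genes tested in this list, which also holds Ier2, Ier5 and the mRNA decay factor Zfp36, 10 were higher, 0 lower and 18 did not pass, against 0.892% and 3.29% of all genes. At an unadjusted limma p under 0.05, 16 were higher and 2 lower, against 5.04% and 19.3% of all genes. With the challenge as a block, 11 were higher (Atf3 added) and 1, Zfp36, was lower. With a filter of 5 RPKM in place of 1, 7 were higher, and Fosl1, Egr4 and Npas4 were not among them. The median log2 fold was 0.94. In order of fold the 10 began with Fosb (4.08), Fosl2 (3.01), Fos (2.42) and Fosl1 (2.41), all partners of Jun proteins in AP-1, and went on with Crem, a cAMP-responsive factor (2.11), and Junb (2.07). Fosl1 stood at 0.949, 0.149 and 0.104 RPKM in input 1, 2 and 3. It thus passed the filter on low values through its IP libraries alone. A larger fold than that of Nr4a3 was seen in 5 of the 28, than that of Nr4a1 in 7 and than that of Nr4a2 in 13. Leaving out 1 library at a time gave 3 to 12 higher genes in this list, the fewest without input 2.

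Fos and the Nr4a genes differed in which IP library was highest. Fos stood at 69.7, 41.9 and 24.9 RPKM in IP 1, 2 and 3, against 8.71, 8.05 and 4.87 RPKM in the inputs. Fos was thus lowest in IP 3, where Nr4a1 and Nr4a3 were highest. The other Fos family genes were highest in IP 1 and lowest in IP 2, Fosb at 89.1, 63.2 and 73.1 RPKM in IP 1, 2 and 3, against 4.78, 2.81 and 3.04 RPKM in the inputs. Within the challenges its ratio of IP to input was 18.6, 22.5 and 24.0, and that of Fosl2 was 8.99, 8.57 and 10.3, both highest in challenge 3 as for the Nr4a genes. Egr4 stood at 3.97, 6.91 and 13.7 RPKM in IP 1, 2 and 3, against 0.758, 0.840 and 1.45 RPKM in the inputs, with IP 3 highest. Whether this difference between libraries exceeds chance was not tested, since each challenge gave 1 IP library.

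**Figure D5:**
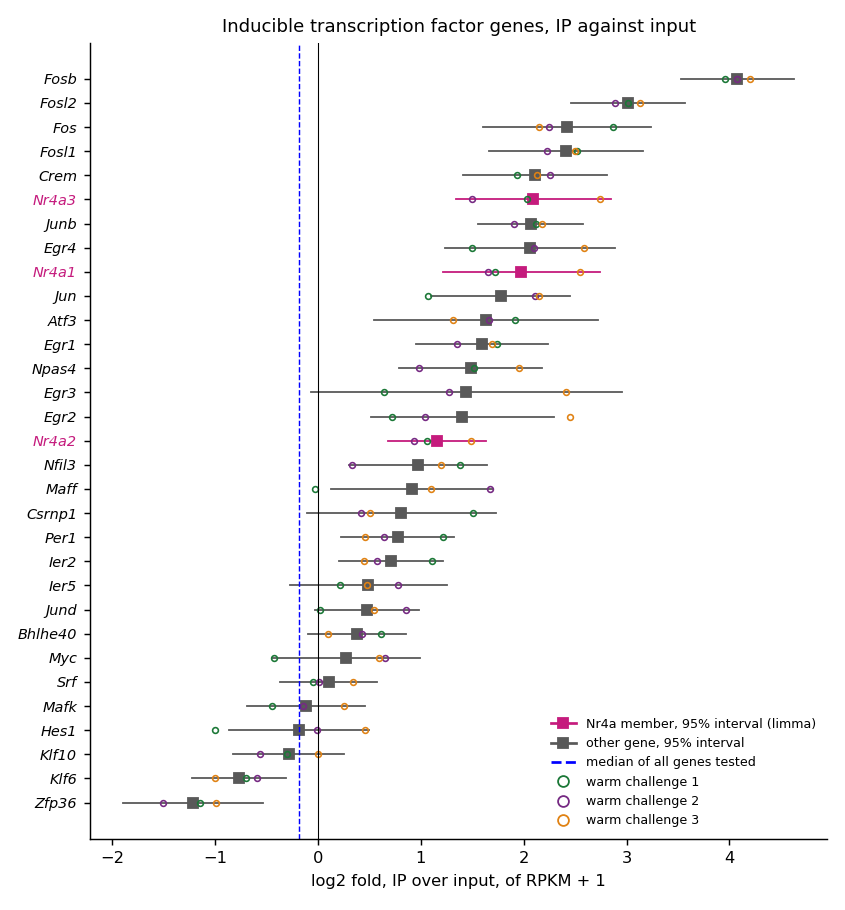
Log2 fold of IP over input (squares, with limma's 95% interval) and the fold within each warm challenge (open circles) for 31 inducible factor genes, from RPKM + 1. Nr4a3 and Nr4a1 stand among the AP-1 and Egr genes near 2, and Nr4a2 stands lower at 1.16.

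The list of upstream activators of Nr4a transcription held 1 call in each direction. Neither call fell among its CREB coactivators, MEF2 factors, calcineurin subunits or calcium-dependent kinases. The other 28 of 30 tested missed the threshold, against 0.892% higher and 3.29% lower among all genes, and the median fold was -0.26 against -0.18 for all genes. At an unadjusted limma p under 0.05, 2 were higher and 5 lower, against 5.04% and 19.3% of all genes. The higher one was Crem (limma adjusted p = 0.0155), which is also counted among the inducible factors above. Whether its product acts on the Nr4a genes here was not tested. Crem stood at 60.4, 60.9 and 35.5 RPKM in IP 1, 2 and 3, against 15.1, 11.9 and 7.32 RPKM in the inputs. Elk1, a factor that acts with serum response factor at early genes, was the lower one, at 5.54, 4.28 and 5.94 RPKM in IP 1, 2 and 3, against 13.5, 12.3 and 12.8 RPKM in the inputs (log2 fold -1.16, limma adjusted p = 0.0274). The Crem call ended without IP 2 and without input 2, and that of Elk1 ended without any 1 library other than IP 1. With the challenge as a block, Rps6ka3, a kinase gene, was also higher, which made 2 higher and 1 lower.

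Of 22 corepressors and coactivators tested, 0 passed in either direction by limma, against 4.19% of all genes. At an unadjusted p under 0.05, 1 was higher and 2 were lower, against 24.4% of all genes, and the median log2 fold was -0.15. Rcor3, a gene of the CoREST family through which Nr4a2 can repress, had the smallest p, with 3.35 ± 1.29 RPKM in IP and 7.67 ± 1.97 RPKM in input (SD, n = 3 each, limma adjusted p = 0.0703). Hdac5, a histone deacetylase gene, stood at 43.3 ± 7.37 RPKM in IP and 28.8 ± 3.51 RPKM in input (SD, n = 3 each, limma adjusted p = 0.161).

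Genes described elsewhere as Nr4a targets held calls in both directions. Among 16 tested, 3 were higher and 1 lower, while 12 missed the threshold, against 0.892% higher and 3.29% lower among all genes, and the median fold was 0.18 on the log2 scale. Fosl2, Bdnf and Crh were the higher ones (the call of Bdnf ended without input 2), and Fosl2 is also counted among the inducible factors above. The study is known to have chosen Bdnf as a marker on these same samples. Crh, corticotropin-releasing hormone, stood at 55.8, 40.3 and 41.6 RPKM in IP 1, 2 and 3, against 11.3, 5.57 and 4.83 RPKM in the inputs. Its groups did not overlap (log2 fold 2.58, limma adjusted p = 0.00664). IP 1 was its highest library, unlike Nr4a1, but its ratio of IP to input within the challenges was 4.94, 7.24 and 8.61. That ratio was highest in challenge 3, as for Nr4a1. Ikzf2, known as a target in T cells, was lower, at 0.533 ± 0.264 RPKM in IP and 2.27 ± 0.409 RPKM in input (SD, n = 3 each, limma adjusted p = 0.0341). It measured 0.834, 0.425 and 0.339 RPKM in IP 1, 2 and 3, and so passed the filter on low values through the inputs alone. This call ended with a filter of 5 RPKM, after median scaling, after quantile normalization and without any 1 library other than IP 1. Genes of dopamine synthesis and storage, which Nr4a2 controls in the midbrain, did not pass. Th measured 41.1, 19.3 and 9.96 RPKM in IP 1, 2 and 3, against 14.9, 14.9 and 8.16 RPKM in the inputs, with overlapping groups (limma adjusted p = 0.388). Pomc, the pituitary target, was low at 1.18, 2.73 and 2.65 RPKM in IP 1, 2 and 3, against 3.03, 2.70 and 2.33 RPKM in the inputs.

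Marker levels of neighbouring tissue differed between challenges. Of 18 markers of neighbouring forebrain (cortex, striatum and claustrum), 13 were listed, and summed they held 93.5, 138 and 570 RPKM in IP 1, 2 and 3, against 103, 106 and 264 RPKM in the inputs. Ppp1r1b, the striatal phosphoprotein DARPP-32, made up most of this sum in IP 3, though not in input 3. It stood at 3.23, 42.7 and 376 RPKM in IP 1, 2 and 3, against 7.60, 16.1 and 126 RPKM in the inputs. Both libraries of warm challenge 3 were the highest for this sum, as they were for Nr4a1 and Nr4a3, and Nr4a1 is known to be abundant in striatum. The part of this tissue in the Nr4a values was not tested. Of 16 preoptic and hypothalamic markers 12 were listed, with sums of 144 to 211 RPKM in IP and 101 to 379 RPKM in input. Of these, 9 were tested and 0 passed by limma in either direction, against 4.19% of all genes. Oxt, the oxytocin gene, stood at 0.592 RPKM in IP 3 and 5.71 RPKM in input 3, against 7.18 to 120 RPKM in the other libraries. Gal (43.5 RPKM in IP 3, 10.8 RPKM in input 3) and Gnrh1 (5.30 and 27.7 RPKM) were also lowest in challenge 3 within each fraction. Not all markers were, and Six3 rose from 32.7 and 41.2 RPKM in IP 1 and 2 to 61.2 RPKM in IP 3. The single midbrain dopamine marker listed, of 9, was Aldh1a1, at 3.03 to 6.56 RPKM in IP and 14.1 to 14.7 RPKM in input. It was lower in IP (log2 fold -1.53, limma adjusted p = 0.0236), against 3.29% of all genes.

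Markers of cells outside the neuronal lineage moved in both directions. The 4 listed of 10 red blood cell genes summed to 202 to 567 RPKM in IP and 14.1 to 50.3 RPKM in input, highest in IP 2, which was the lowest IP library for all 3 Nr4a genes. All 3 of those tested were higher in IP, against 0.892% of all genes, led by Hbb-b1 with a log2 fold of 3.26 (limma adjusted p = 0.0192). Endothelial and pericyte genes, 2 listed of 13, summed to 1.07 to 2.08 RPKM in IP and 3.36 to 5.55 RPKM in input. The 1 tested, Rgs5, was lower in IP (log2 fold -1.32, limma adjusted p = 0.0305), against 3.29% of all genes. For microglia and macrophages, in which Nr4a1 is also known to be induced, 11 of 13 were listed, with sums of 18.1 to 26.8 RPKM in IP and 17.8 to 33.0 RPKM in input. Cd68 was the 1 of 6 tested that was higher in IP (log2 fold 1.44, limma adjusted p = 0.0426), against 0.892% of all genes. It stood at 5.67, 4.13 and 10.4 RPKM in IP 1, 2 and 3, against 2.43, 1.28 and 1.51 RPKM in the inputs. All 13 oligodendrocyte markers were listed, with sums of 397 to 606 RPKM in IP and 1187 to 1300 RPKM in input, and 9 were lower in IP, against 3.29% of all genes. The 9 astrocyte markers summed to 293 to 316 RPKM in IP and 309 to 424 RPKM in input. Of 14 pan-neuronal markers 12 were listed, with sums of 4515 to 7933 RPKM in IP and 5074 to 6292 RPKM in input. None of these passed by limma, against 4.19% of all genes. At an unadjusted limma p under 0.05, 2 were higher and 0 lower, against 5.04% and 19.3% of all genes. The part of these cells in the Nr4a result was not tested.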

How the data were processed

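RNA of 3 IP and 3 input libraries was sequenced by the submitters. An Ovation kit amplified the cDNA and an Illumina sequencer read it, per the labels' protocols. The authors deposited a single table of gene RPKM, which the header calls linear. For the build, mm9 is named in the submitters' processing notes. How reads were aligned and counted is not given in the labels or headers. The table held 13724 entries, 13712 symbols and no value under 0.101 RPKM, and list genes without an entry were not analysed. Of the symbols, 12033 matched a gene name table. Absolute depth is unknown. Ratios of low values placed the depth of the other libraries at 1.22 to 1.59 times that of input 1, an untested estimate. Summed RPKM per library lay between 374708 and 496125.

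Tests used log2(RPKM + 1) of 12328 genes, each reaching 1 RPKM in no fewer than 3 libraries, with limma 3.58.1 in R 4.3.3 (mean-variance trend, no block, adjusted p threshold 0.05). The script was tested on simulated data. Permutation tests, promoter searches and plots used Python 3.11.15 (pandas 2.3.3, matplotlib 3.10.9, numpy 2.4.6). The label number marks a shared warm challenge, so IP and input of a challenge form a pair. The main tests did not use the pairing, and fits or permutations that did were run as alternatives. Deviations from group means correlated within pairs by 0.05, 0.61 and 0.27 across genes. Between IP and input of different challenges they correlated by -0.52 to 0.18, and IP 1 was nearer to input 3 (0.18) than to input 1. Members, lists and tests were chosen with earlier results of these data known. Genes to be named were the members, up to 6 called genes per list by fold or else the 2 with the smallest p, the 3 most abundant markers per marker list and the 5 nearest profiles per member. The genes Thra, Th, Pomc and Six3 were added after their values were seen. Egr4 is among the nearest profiles. RefSeq promoters (GRCm38.p6) were matched by symbol for 3 of 3 members. Alternatives were 2 other pseudocounts, 2 filters, 2 scalings, no trend, a replicate block and omission of each library or challenge.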

Additional observations from a re-analysis of the deposited data

How the results depend on the processing

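The calls of Nr4a1, Nr4a2 and Nr4a3 held under all 8 settings that kept the 6 libraries, with log2 folds of 1.50 to 2.16, 0.79 to 1.36 and 1.16 to 2.65 and limma adjusted p values of 0.0120 to 0.0368. With the warm challenge as a replicate block the adjusted p was 0.0207 for Nr4a1, 0.0368 for Nr4a2 and 0.0216 for Nr4a3, and 164 genes were higher and 492 lower in IP. The block changed no call of the 3 genes. Leaving out 1 library or 1 challenge gave log2 folds of 1.57 to 2.25 for Nr4a1, 1.00 to 1.27 for Nr4a2 and 1.71 to 2.42 for Nr4a3, and the calls held in 3, 1 and 3 of 9 omissions. The highest adjusted p among them was 0.175, 0.281 and 0.124 in that order, in designs with fewer libraries. Over these omissions the genes higher in IP numbered 1 to 450 and those lower 0 to 1249, the highest counts without IP 1. Members called ranged from 0 to 3 for other nuclear receptors, 1 to 14 for other inducible factors, 0 to 3 for upstream activators, 0 to 2 for corepressors and coactivators and 0 to 6 for described targets. Median scaling gave 125 and quantile normalization 128 genes lower in IP, against 406. The difference between Nr4a3 and Nr4a1 was 0.12 with a pseudocount of 1, 0.51 with 0.1 and -0.34 with 5, since the lower gene is damped more by a larger pseudocount. Without read counts, no counting error can be given for levels near 1 RPKM, such as those of Nr4a3 in input.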
